A study of Mus musculus with 45 samples.

Results

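The endothelin and angiotensin pathways were followed in mouse heart through 9 genes out of the 23284 gene symbols listed for each RNA library. The genes were chosen by name, as the peptides or their precursors, the converting enzymes and the receptors of both systems. They are Edn1, Edn3, Ednra, Ednrb, Ece1, Agt, Ace, Agtr1a and Agtr2, and all 9 were listed. Of these, 7 reached 1 FPKM (read fragments per kilobase, relative to all mapped reads) in at least 1 library and 6 reached 5 FPKM. Edn3, Agt and Agtr2 stayed under 5 FPKM in every library.

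Endothelins are small vasoactive peptides made mainly by endothelial cells. They are cut from a large precursor by the endothelin converting enzyme and act on a pair of G protein coupled receptors, type A on muscle and mesenchymal cells and type B mainly on endothelium and on cells derived from the neural crest. Signalling from endothelin 1 to the type A receptor patterns the neural crest of the pharyngeal arches and outflow vessels in the mouse embryo, and in the adult it constricts vessels and promotes growth of cardiac myocytes. The angiotensin system runs in the circulation and in tissues: renin cuts angiotensinogen, the angiotensin converting enzyme on endothelium makes the active peptide, and its type 1 receptor raises vascular tone and cardiac growth, while the type 2 receptor is known mainly from fetal tissues. Both type A endothelin and type 1 angiotensin receptors couple to Gq and phospholipase C.

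The study measured poly(A) RNA of whole mouse heart in 6 libraries, within a series of 45 samples made to relate Gata4 binding and histone marks to expression in development and disease. Adult heart had 2 libraries, and heart of the mid-gestation embryo (E12.5, in days), E12.5 heart with the genotype label Gata4 KO, heart labelled banding and heart labelled sham had 1 library each. In banding a constriction is tied around a large artery so that the heart pumps against a load, and sham is the operation without it. The labels give neither the artery nor the age of the banding and sham animals, and the adult age has no number. For the whole series the labels list the alleles Gata4fbio (a tagged Gata4), Rosa26BirA (the biotin ligase for that tag), cTNTcre (Cre under the cardiac troponin T promoter, active in cardiac myocytes) and Gata4flox, without saying which RNA library carried which. Each library was made from 2 µg of pooled RNA, and no label ties the 2 adult libraries to separate animals, so a p-value here measures only the spread between these libraries.

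Depth ranged from 12086929 to 21056784 mapped reads per library. Cardiac myocyte markers were high in all 6 libraries, with a summed level of 8741 FPKM in the lowest library and 22039 FPKM in the highest. On the log2(FPKM + 1) scale Gata4 was at 5.93 for E12.5 and at 6.13 for the library labelled Gata4 KO. The ratio of its FPKM was 1.15 with a 95% interval of 1.10 to 1.20, so the targeted gene was not lower in the library with the knockout label. The labels do not say which part of the gene the floxed allele loses, and every direction below that uses this library takes its label as it stands. The ribosomal RNA precursor Rn45s was high after banding (12.96) and sham (12.94), against 8.94 at most elsewhere, and took 4.66% and 4.57% of mapped reads there. Reads on listed genes made up 58.0% of mapped reads in banding and 55.6% in sham, against 75.9% to 83.9% in the other libraries. The median difference of all genes between sham and adult was -0.44 on the log2(FPKM + 1) scale. Here and below, such a median covers only genes at 1 FPKM or more in at least 1 library of that comparison. The percentage of all genes with a lower difference is taken over the same genes.

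The start regions of 3 genes are shown because the comparisons below turn on these genes. Edn1 stood apart in the library labelled Gata4 KO, Ednrb was far higher in the embryo, and Ace was near 0 in the embryo and expressed in every later heart. Each run holds 250 bases before the transcription start and 50 after it, 5′ to 3′ on the strand of the gene, from RefSeq on GRCm38.p6. The Edn1 region is chr13:42301226-42301525 on the plus strand, the Ednrb region chr14:103843652-103843951 on the minus strand and the upstream Ace region chr11:105967698-105967997 on the plus strand. Capitals mark a GATA word.
Edn1: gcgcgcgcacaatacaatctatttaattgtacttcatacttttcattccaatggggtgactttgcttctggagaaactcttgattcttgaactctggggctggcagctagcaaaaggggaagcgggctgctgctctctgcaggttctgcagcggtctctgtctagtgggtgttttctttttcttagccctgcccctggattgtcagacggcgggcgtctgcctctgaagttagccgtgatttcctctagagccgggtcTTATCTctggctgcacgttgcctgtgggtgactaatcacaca
Ednrb: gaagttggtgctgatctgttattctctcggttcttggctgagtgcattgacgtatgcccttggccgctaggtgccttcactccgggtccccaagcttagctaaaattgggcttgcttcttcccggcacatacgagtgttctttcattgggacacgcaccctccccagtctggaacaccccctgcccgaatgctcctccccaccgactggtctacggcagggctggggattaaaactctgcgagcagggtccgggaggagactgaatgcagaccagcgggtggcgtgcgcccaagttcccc
Ace: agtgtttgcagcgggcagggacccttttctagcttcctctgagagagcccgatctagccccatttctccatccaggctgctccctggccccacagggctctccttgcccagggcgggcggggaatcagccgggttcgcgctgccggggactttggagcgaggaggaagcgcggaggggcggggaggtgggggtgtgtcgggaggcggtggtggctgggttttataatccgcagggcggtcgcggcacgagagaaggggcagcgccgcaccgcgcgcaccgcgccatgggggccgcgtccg
The GATA words searched were AGATAA or AGATAG as well as TGATAA or TGATAG, on both strands. Over the 12 start regions that RefSeq lists for 8 of the 9 genes, 1 match was found. It is TTATCT in the Edn1 region, the reverse complement of AGATAA, and begins at base 9 counted from the transcription start. Of 32851 start regions of this length in the same table, 29.8% held a GATA word, so a match in 1 gene is a description and no more. The AP-1 words TGACTCA and TGAGTCA, found in 5.20% of those regions, matched none of the 12. Only these exact words were searched, so an AP-1 site with another spelling would not be counted. Agtr1a had no entry in that table.

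Levels of the peptide genes came first. Edn1, the precursor of endothelin 1, stood at 2.32 at E12.5, 3.96 for the library labelled Gata4 KO, 1.57 and 1.65 in adult hearts, 1.40 after banding and 1.72 after sham. These levels are log2(FPKM + 1), as are all levels and differences below unless FPKM is named. The library labelled Gata4 KO was the highest by a wide margin, with 608 Edn1 reads against 197 in E12.5. As deposited, the 4 hearts after birth lay close together, and the interval of the FPKM ratio between sham and adult, 0.815 to 1.53, included 1. The sham minus adult difference of Edn1 was 0.11 as deposited and up to 0.67 under other scalings of the libraries.

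Edn3, the precursor of endothelin 3, the preferred peptide of the type B receptor in neural crest cells, stood at 0.07 at E12.5, 0.03 for the library labelled Gata4 KO, 0.99 and 0.04 in adult hearts, 1.61 after banding and 0.50 after sham. The adult libraries disagreed, with 37 Edn3 reads in replicate 1 and 1 read in replicate 2. Markers of atrial muscle also differed between these libraries. The 4 such genes Myl7, Myl4, Sln and Bmp10, a list added after the values were seen, summed to 137 FPKM in replicate 1 and 77.9 FPKM in replicate 2. In banding, the library with the highest Edn3 level, they summed to 3.55 FPKM, and in sham to 2.69 FPKM. The melanocyte gene Dct was at 2.04 and 1.69 in adult, 3.16 in banding and 1.69 in sham, and Tyrp1, another melanocyte gene, was at 0 in every library. The part of these cell types in the Edn3 levels was not tested. Edn1 exceeded Edn3 in FPKM in 5 of 6 libraries, and in banding the ratio was 0.803 with an interval of 0.560 to 1.14.

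Agt, the angiotensin precursor, made mainly by liver, was low throughout. It stood at 0.39 at E12.5, 0.92 for the library labelled Gata4 KO, 0.60 and 0.81 in adult hearts, 0.26 after banding and 0.24 after sham, from 4 to 29 reads. It reached 1 FPKM in 0 of 6 libraries. The libraries held little liver RNA, with the 6 liver markers summing to 2.19 FPKM in E12.5 and less in the others.

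**Figure D1:**
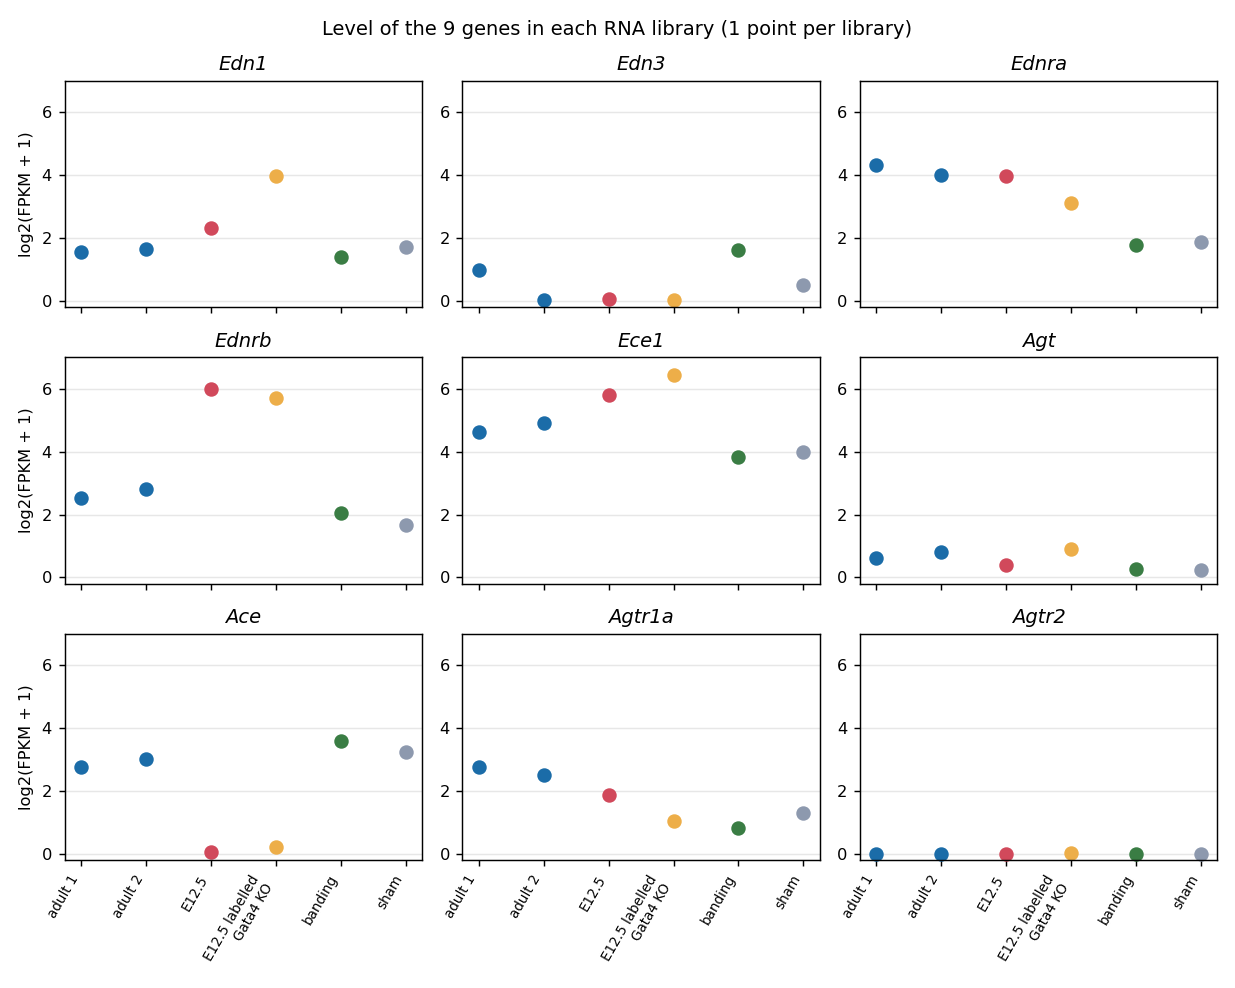
Level of each gene in log2(FPKM + 1), 1 point per library, with the same vertical axis in all 9 panels. Ednrb and Ece1 are highest in both E12.5 libraries, Ace is close to 0 there, and Ednra is lowest in banding (1.79) and sham (1.87).

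Among the enzymes, Ece1, which releases active endothelin from its precursor, was above 5 FPKM in all 6 libraries. It stood at 5.82 at E12.5, 6.45 for the library labelled Gata4 KO, 4.63 and 4.91 in adult hearts, 3.84 after banding and 4.0 after sham. Both embryonic libraries were above all later hearts. Ace, the angiotensin converting enzyme, ran the other way. It stood at 0.04 at E12.5, 0.21 for the library labelled Gata4 KO, 2.75 and 3.03 in adult hearts, 3.59 after banding and 3.23 after sham. The E12.5 library held 3 Ace reads and the library labelled Gata4 KO 14, while each later heart held at least 354. Within each library the FPKM of Ace relative to Ece1 was 0.000525 at E12.5, 0.00186 for the library labelled Gata4 KO, 0.240 and 0.247 in adult hearts, 0.832 after banding and 0.559 after sham. The order of the later hearts in this ratio, banding, then sham, then both adult libraries, is separated by counting intervals that do not overlap, except between the adult pair. Such intervals cover counting error only. For Ednra relative to Ednrb even those of the adult pair lay apart, at 3.43 to 4.58 and 2.20 to 2.90.

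Among the receptors, Ednra, the type A endothelin receptor, stood at 3.97 at E12.5, 3.11 for the library labelled Gata4 KO, 4.32 and 4.0 in adult hearts, 1.79 after banding and 1.87 after sham. Banding and sham were the lowest and were close to each other. Ednrb, the type B receptor, which also clears endothelin, stood at 5.99 at E12.5, 5.72 for the library labelled Gata4 KO, 2.53 and 2.80 in adult hearts, 2.05 after banding and 1.67 after sham. Both embryonic libraries stood far above the others.

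The balance of both endothelin receptors differed between embryo and adult. The FPKM of Ednra relative to Ednrb was 3.96 (95% counting interval 3.43 to 4.58) and 2.52 (2.20 to 2.90) in the adult libraries. It was 0.235 (0.220 to 0.251) at E12.5 and 0.148 (0.135 to 0.163) with the Gata4 KO label. It was 0.782 (0.617 to 0.990) in banding and 1.22 (0.929 to 1.60) in sham. Type A exceeded type B in both adult libraries, type B exceeded type A in both embryonic ones, and banding and sham lay between. This ratio does not depend on how libraries are scaled, and all intervals cover counting error only.

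Agtr1a, the main type 1 angiotensin receptor gene of the mouse, stood at 1.86 at E12.5, 1.06 for the library labelled Gata4 KO, 2.76 and 2.52 in adult hearts, 0.83 after banding and 1.29 after sham. Both adult libraries were the highest. Its near-identical paralogue Agtr1b was at 0 in all libraries but E12.5, where it stood at 0.03, and reads shared by the pair make both values uncertain. Agtr2, the type 2 receptor, had 1 read in the library labelled Gata4 KO and 0 in the other 5. At this depth a level under 3 reads could not be told from 0.

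**Figure D2:**
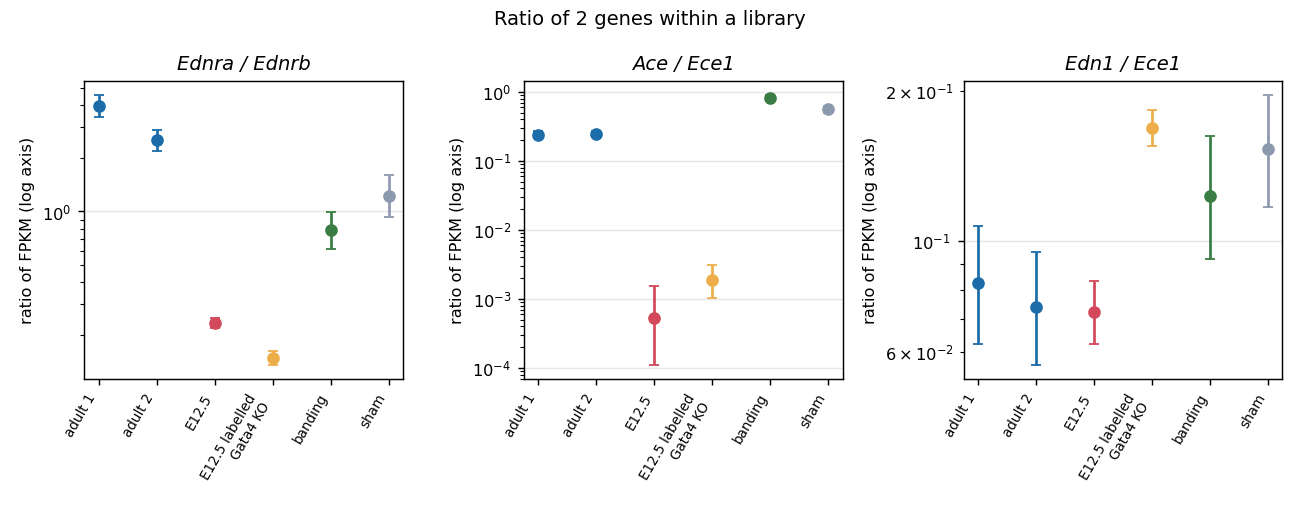
Ratio of the FPKM of 2 genes within each library on a log axis, with exact 95% counting intervals as bars. Ednra exceeds Ednrb in adult (3.96 and 2.52) and is below it in E12.5 (0.235), and the ratio of Ace to Ece1 is 0.000525 in E12.5 and 0.832 in banding.

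The first comparison, adult against E12.5, is the only one with a replicated group. The angiotensin converting enzyme and the type 1 angiotensin receptor rose, and endothelin 1, its converting enzyme and the type B endothelin receptor fell. By limma, 2 of the 6 genes that could be tested rose, 3 fell and 1 did not pass. Over all 12658 genes tested 23.4% rose and 48.4% fell, so a call in this comparison is common. These are 2965 and 6123 genes as deposited, and with upper-quartile scaling 4218 rose and 4304 fell. The median difference was -0.26 over the 6 genes and -0.51 over all genes tested.

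Ace rose from 0.04 at E12.5 to 2.89 ± 0.20 (SD, n = 2) for adult hearts, higher by 2.85 (SE 0.19, limma adjusted p = 0.00636). In FPKM the ratio was 221 with a counting interval of 75.5 to 1076, which is wide because E12.5 held 3 reads. Agtr1a rose from 1.86 to 2.64 ± 0.17 (SD, n = 2), by 0.78 (SE 0.17, limma adjusted p = 0.0413), a call that was lost with no filter on low values (limma adjusted p = 0.119). Both adult libraries were above E12.5 for each gene, and 97.3% of all genes had a lower difference than Ace.

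Ednrb fell from 5.99 to 2.67 ± 0.19 (SD, n = 2), a difference of -3.32 (SE 0.17, limma adjusted p = 0.00499). In FPKM it was 11.7 times higher in E12.5 (interval 10.7 to 12.8), and 3.73% of all genes had a lower difference. Ece1 fell from 5.82 to 4.77 ± 0.19 (SD, n = 2), by -1.05 (SE 0.16, limma adjusted p = 0.0220). Edn1 fell from 2.32 to 1.61 ± 0.06 (SD, n = 2), by -0.71 (SE 0.12, limma adjusted p = 0.0244). The difference of Edn1 was near the median of all genes, -0.51, and that of Ece1 was further below it. Of all genes, 43.8% had a lower difference than Edn1 and 34.0% a lower one than Ece1. Both calls were lost under upper-quartile scaling, where Edn1 differed by -0.26 (limma adjusted p = 0.141) and Ece1 by -0.48 (limma adjusted p = 0.0726).

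Ednra did not pass: its level was 3.97 at E12.5 and 4.16 ± 0.22 (SD, n = 2) for adult hearts, with a difference of 0.19 (SE 0.19, limma adjusted p = 0.439). Edn3, Agt and Agtr2 were under 1 FPKM in these 3 libraries and were not tested. By a fixed rule of size, a difference of 2-fold or more in FPKM where the higher group has 5 FPKM or more, Ace and Agtr1a were higher and Ednrb and Ece1 lower in adult among 5 genes at that level. Ece1 did not pass this rule under any of the 3 other scalings, where it differed by -0.71 to -0.48, nor did Agtr1a when libraries were scaled without their 50 highest genes. The same rule counted 18.4% of 8802 genes as higher and 41.1% as lower (1619 and 3621 genes, against 2475 and 2213 with upper-quartile scaling). Between the 2 adult libraries it counted 38 genes of 6460, none of them among the 9.

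The 11 endothelial markers summed to 344 FPKM in E12.5 and, as the mean of both libraries, 395 FPKM in adult, a ratio of 1.15. The 4 endocardial markers Nfatc1, Npr3, Plvap and Hapln1 were all lower in adult, and their sum was 11.6 times higher in E12.5. Their median difference was -2.44, and that of Ednrb was -3.32. Ednrb amounted to 18.2% of the summed endothelial marker level in E12.5 and 1.23% and 1.49% in the adult libraries. Ace amounted to 0.00843% in E12.5 and 1.47% and 1.78% in adult. Fewer cells of a type and less RNA per cell cannot be told apart in whole heart, and the part of endocardium in the Ednrb difference was not tested.

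**Figure D3:**
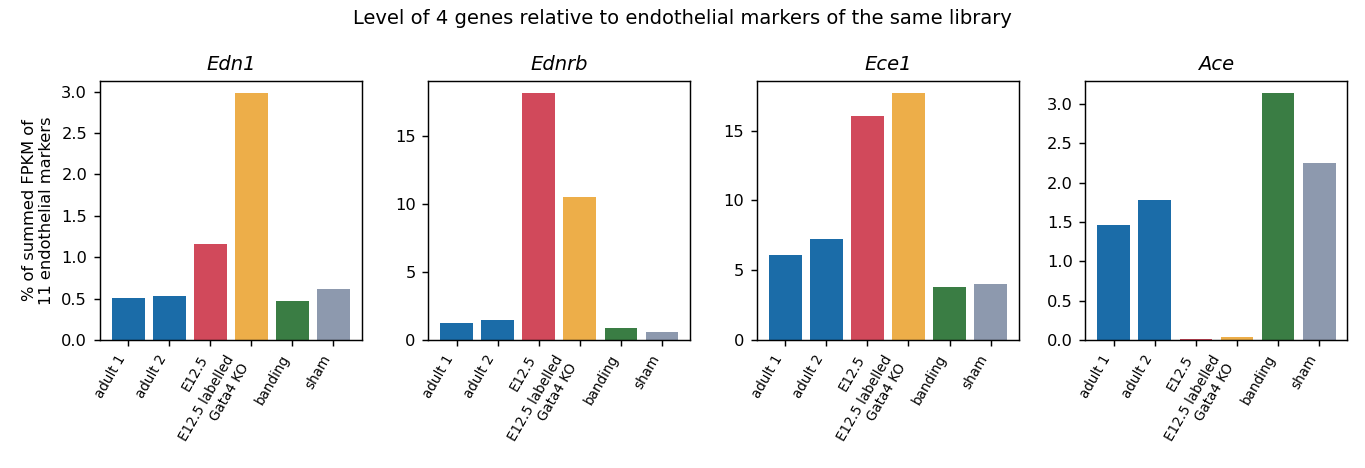
FPKM of 4 genes as a percentage of the summed FPKM of 11 endothelial markers in the same library, 1 bar per library, each panel with its own axis from 0. Ednrb is at 18.2% in E12.5 and 1.23% in the first adult library, Edn1 is highest in the library labelled Gata4 KO (2.98%) and Ace is highest in banding (3.14%).

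The rest of both pathways was read from lists of other components. Of 18 further genes of the renin and angiotensin system, 11 could be tested between adult and E12.5, and 3 rose and 6 fell, close to the 23.4% and 48.4% of all genes. Ren1 and Ren2, the renin genes of the mouse, were at 0 in all 6 libraries. Agtrap, a protein that binds the type 1 receptor and lowers its signalling, rose by 1.04 (SE 0.11). The largest falls were those of the peptidases Thop1, by -1.91 (SE 0.25), Prcp, by -1.38 (SE 0.17), and Prep, by -1.13 (SE 0.09), and of the renin receptor Atp6ap2, by -1.27 (SE 0.18).

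Of 7 further endothelin genes, 3 could be tested, and 2 fell, where 48.4% of all genes fell. Kel, a red cell surface peptidase that in human can process endothelin 3, fell by -3.42 (SE 0.07, limma adjusted p = 0.00398) and was at 0 in both adult libraries. The 5 primitive red cell markers were also lower in adult, with a summed 21255 FPKM in E12.5 against 0.915 FPKM in adult, and their part in the Kel value was not tested. Ece2, a second converting enzyme, fell by -1.35 (SE 0.16). Of the aldosterone and kinin genes, Nr3c2, the mineralocorticoid receptor, rose by 1.83 (SE 0.29, limma adjusted p = 0.0221), and the aldosterone synthase Cyp11b2 was at 0 in every library. Of 7 crest genes known to respond to endothelin in the pharyngeal arches, 3 could be tested and 1 fell, Hand1, which stood at 4.96 in E12.5 and 0 in both adult libraries. These are values of whole heart, and the cells behind the Hand1 value were not tested.

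Downstream of the receptors, 27 genes of G protein signalling and receptor desensitisation were listed. Of the 26 tested between adult and E12.5, 9 rose, 10 fell and 7 did not pass, against 23.4% and 48.4% over all genes. Rgs5, a regulator that shortens G protein signals, rose by 6.21 (SE 0.08), from 0.34 to 6.52 and 6.56. It is also a pericyte marker and itself 1 of the 7 smooth muscle and pericyte markers, of which 3 were higher in adult and 4 lower. The part of pericytes in the Rgs5 value was not tested. Plcb4, a phospholipase C that Gq activates, rose by 3.63 (SE 0.11), and Rgs4, another such regulator, rose by 3.30 (SE 0.14). Rock2, a protein kinase, rose by 2.39 (SE 0.07). Gnaq, the Gq subunit itself, stood at 3.07 and 3.21 in adult and 4.06 in E12.5 and fell by -0.92 (SE 0.12, limma adjusted p = 0.0167). The largest fall was that of Arrb2, an arrestin that desensitises receptors, by -2.27 (SE 0.24, limma adjusted p = 0.0114).

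**Figure D4:**
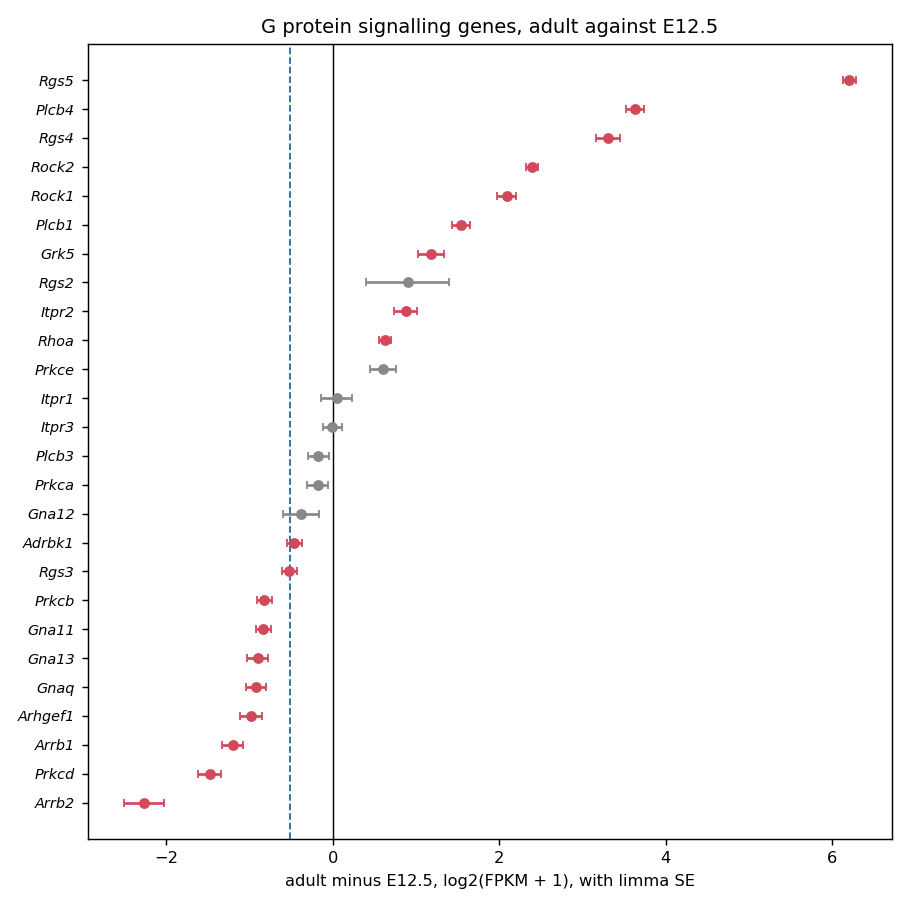
Adult minus E12.5 difference in log2(FPKM + 1) for the 26 G protein signalling genes tested, with the limma standard error as a bar, red for genes past an adjusted p of 0.05 and grey for the others. The dashed line is the median of all genes (-0.51), and Rgs5 (6.21) and Arrb2 (-2.27) are the extremes.

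The second comparison set the library labelled Gata4 KO against E12.5, with 1 library on each side, no replicate check and no p-value. Edn1 was the gene that stood out. Its level was 3.96 against 2.32, an FPKM ratio of 3.65 with a counting interval of 3.10 to 4.31, and 99.8% of all genes had a lower difference. By the rule of size 1 of the 4 genes at that level, Edn1, was higher and none lower, where 1.85% of 8218 genes were higher and 1.01% lower (152 and 83 genes, against 165 and 53 when scaled without the 50 highest genes).

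Both receptors that constrict vessels were lower in the library labelled Gata4 KO without passing the rule. Ednra was 3.11 against 3.97, and its FPKM was 1.92 times higher in E12.5 (interval 1.73 to 2.14). Only 1.21% of all genes had a lower difference than Ednra. Agtr1a was 1.06 against 1.86, 2.42 times higher in E12.5 in FPKM (interval 1.71 to 3.50), but it was under 5 FPKM on both sides.

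Ece1 was higher by 0.63, an FPKM ratio of 1.56 (interval 1.51 to 1.62), in the direction of Edn1. Ednrb was lower by a smaller step, with a ratio of 0.825 (interval 0.791 to 0.861). Agt had 29 reads against 12 and Ace 14 against 3, both at low levels. Of the other listed pathway genes, none passed the rule, although 20 of the G protein signalling genes and 10 of the renin and angiotensin genes were at the level it needs. Over all genes at that level 1.85% were higher and 1.01% lower.

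Markers of several cell types moved with these values. In the library labelled Gata4 KO the summed FPKM of the endothelial markers was 1.42 times that in E12.5, with 9 of 11 genes higher, and that of the endocardial markers 1.26 times, with 4 of 4 higher. The 8 fibroblast markers summed to 2.12 times, the smooth muscle markers to 2.09 times and the primitive red cell markers to 3.04 times the E12.5 level, while the cardiac myocyte markers were at 0.698 of it. As a share of the summed endothelial markers, Edn1 was 2.98% against 1.16% in E12.5, and Ednrb 10.6% against 18.2%. Ednra was lower, as were the summed cardiac myocyte markers, and the summed smooth muscle and fibroblast markers were higher. The part of cell composition in these values was not tested.

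The third comparison set banding against sham, again with 1 library each. Of the 2 genes at 5 FPKM, Ece1 and Ace, neither passed the rule of size, which counted 3.19% of 5108 genes as higher and 1.62% as lower in banding (163 and 83 genes, against 142 and 164 when scaled without the 50 highest genes). Ace was 3.59 in banding and 3.23 in sham, an FPKM ratio of 1.32 (interval 1.18 to 1.48). Ece1 was 3.84 and 4.0, a ratio of 0.887 (interval 0.807 to 0.975).

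The widest difference was in Edn3, with 85 reads in banding and 15 in sham, an FPKM ratio of 4.89 (interval 2.80 to 9.11). It was under 5 FPKM in both, and the adult libraries differed for this gene by 37 reads against 1. On the log2(FPKM + 1) scale banding and sham stood 1.10 apart, with the adult libraries at 0.99 and 0.04. Ednrb had a ratio of 1.44 (interval 1.12 to 1.85) and Agtr1a one of 0.539 (interval 0.313 to 0.910), each from 175 reads or fewer. The intervals of Edn1, 0.490 to 1.04, Ednra, 0.710 to 1.20, and Agt, 0.232 to 5.43, included 1. None of the other pathway genes passed the rule, where 3.19% of all genes were higher and 1.62% lower. Only 16 G protein signalling genes, 2 renin and angiotensin genes and 2 crest genes were at the level it needs. Fibroblast markers summed to 2.45 times the sham level in banding, with 8 of 8 higher, while the endothelial sum was 0.948 of it.

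**Figure D5:**
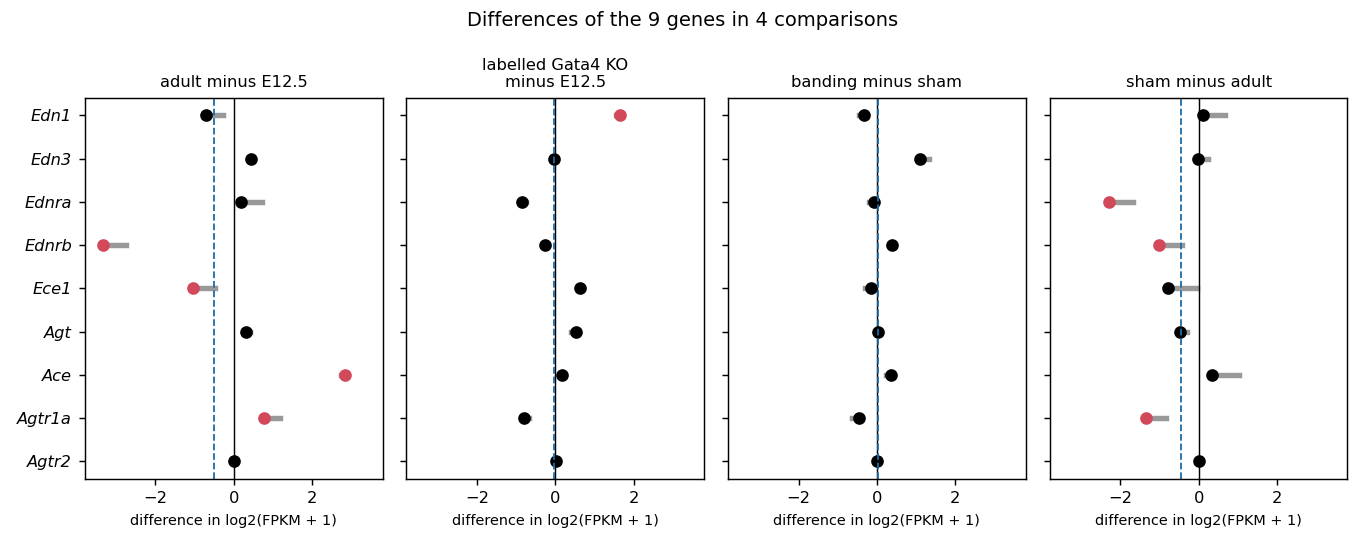
Difference in log2(FPKM + 1) of each gene in 4 comparisons (points), red where the rule of size was passed. Grey bars span the values under 4 scalings of the libraries and dashed lines mark the median of all genes. Edn1 (1.64) is the red point of the second panel, the third has none, and Ednra (-2.29) is the lowest point of the fourth.

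The last comparison, sham against adult, sets hearts without banding beside each other. Reads on listed genes made up 55.6% of mapped reads in sham and 83.6% and 83.9% in the adult libraries. With 1 sham library, the operation, the age, which is not given, and the make-up of the libraries cannot be told apart. The comparison shares the adult libraries with the first one, so the values are not independent. Ednra was 1.87 in sham and 4.16 ± 0.22 (SD, n = 2) in adult, and its FPKM was 6.40 times higher in adult (interval 5.30 to 7.79). By the rule of size 3 of 5 genes, Ednra, Ednrb and Agtr1a, were lower and none higher in sham, where 43.7% of 6671 genes were lower and 6.49% higher. A lower call is thus common here, and the split of 2915 lower and 433 higher genes became 1515 and 1337 with upper-quartile scaling.

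Ednra stayed lower under every scaling tried, from -2.29 to -1.68, and 2.67% of all genes had a lower difference. The call of Ednrb, -1.0 as deposited, was lost under all 3 other scalings (-0.63 to -0.43). That of Agtr1a, -1.35 as deposited, was lost when libraries were scaled without their 50 highest genes (-0.83) and was kept under the other 2 scalings. The rule also no longer held for Ednrb without adult replicate 2 (-0.86) or for Agtr1a without adult replicate 1 (-1.23). Ace was not lower, at 3.23 in sham and 2.89 ± 0.20 (SD, n = 2) in adult. Its difference of 0.34 became 1.03 when libraries were scaled without their 50 highest genes, which passes the rule. Smooth muscle and pericyte markers were also lower in sham, at 0.358 of the adult sum with 6 of 7 lower, as were cardiac myocyte markers, at 0.623 of their adult sum. Fibroblast markers were higher, at 2.32 times the adult sum with 6 of 8 higher. The part of these cell types in the Ednra value was not tested. Of the other pathway genes at 5 FPKM, 4 of 5 renin and angiotensin genes were lower in sham, among them the peptidase Lnpep at 1.89 against a mean of 4.66. Of 19 G protein signalling genes 2 were higher and 7 lower, with the receptor kinase Grk5 at 2.03 against a mean of 4.25. Over all genes at that level 43.7% were lower and 6.49% higher. These list counts were made on the deposited values only.

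Finally, the profile of each gene past a test or rule was matched over the 6 libraries against the 13383 genes that reached 1 FPKM in any library. The measure was the root-mean-square difference between profiles centred on their mean. Mir540 (0.10), Rims3 (0.10) and Colq (0.15) were nearest to Edn1. Mtx2 (0.11), Oxnad1 (0.17) and Tank (0.17) were nearest to Ednra, and Naa38 (0.08), Mcm3 (0.10) and Hnrnpa0 (0.12) to Ednrb. The nearest to Ece1 were Lipa (0.11), Zdhhc9 (0.11) and Ankrd46 (0.13), and to Ace Rpl23 (0.09), Rpl3 (0.15) and Cir1 (0.15). Rnpc3 (0.08), Ctnnal1 (0.17) and Bri3bp (0.18) were nearest to Agtr1a. None of these 18 genes belongs to the lists of either pathway, and the likeness describes these 6 libraries alone.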

How the data were processed

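Poly(A) RNA of 6 heart libraries was analysed, and the chromatin samples were not used here. Per the submitters' processing notes, the series names TopHat 1.4 and HTSeq 0.5.3 among its tools, and mm9 as build. What made the expression values is not stated in those notes. The authors deposited 1 value per gene on a log2 scale, log2(FPKM + 1), as read from the values. Because FPKM is relative to all mapped reads, a level depends on the share of reads that fall on listed genes. Per the labels' protocols no step marks strand, so overlapping antisense genes cannot be told apart. Ednra, Ednrb, Ece1 and Ace overlap RefSeq genes that are not listed in the files.

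Reads were worked back from FPKM with, for each gene, the smallest length that makes them whole in every library. They were whole within 0.001 of a read for 99.998% of 98043 values, a share that this search favours and that does not check them. Where the true length and reads share a factor, the reads are too few and the intervals too wide. The reads gave exact conditional-binomial 95% counting intervals, which cover counting error only. Adult and E12.5 were compared by limma 3.58.1 (R 4.3.3) with a mean-variance trend over 12658 genes at 1 FPKM or more, with Benjamini-Hochberg adjustment at 0.05. The spread came from the adult pair (residual degrees of freedom 1, prior 1.535), and the single E12.5 library was taken to vary alike. No count model was run on the recovered reads. Other comparisons used the rule of size. Beyond the 9 genes, at most 4 genes of a list were named per comparison, those past the test with the largest difference, with Gata4 and 3 nearest profiles per gene; genes at 0 in every library, Agtrap, Gnaq, Arrb2, Agtr1b and the melanocyte and atrial markers were named after their values were seen. The genes and lists were chosen with earlier results of these data known.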

Additional observations from a re-analysis of the deposited data

How the results depend on the processing

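No called difference of the 9 genes changed direction under any alternative tried. Beside the calls of Edn1 and Ece1 lost under upper-quartile scaling, limma gave Edn1 an adjusted p = 0.0567 without the 50 highest genes, 0.101 with median-of-ratios scaling and 0.0836 with no filter. It gave Ece1 0.0545 with median-of-ratios scaling and 0.0921 with no filter. Ace and Ednrb kept their calls in every limma fit run. Without an adult replicate no residual degree of freedom is left, so those differences are values with no test. No paired analysis was possible because every RNA group other than adult has 1 library.

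Counts over all genes by the rule of size moved with the threshold and the scaling. At 1.5-fold, 470 genes were higher and 379 lower in the library labelled Gata4 KO, 484 higher and 264 lower in banding, and 746 higher in sham than in adult. At 1 FPKM the counts were 428 and 205, 398 and 256, and 1263. Scaling without the 50 highest genes gave 53 lower with the Gata4 KO label, 164 lower in banding, and 1550 higher and 1224 lower in sham. Upper-quartile scaling gave 1337 higher and 1515 lower in sham, and median-of-ratios scaling 1108 and 1719. For adult against E12.5, upper-quartile scaling gave 2475 higher and 2213 lower in adult, and median-of-ratios scaling 2406 lower. Applying scalings to that last comparison, and taking 2-fold on the log2(FPKM + 1) scale, were chosen after seeing the data, and the second gave 51 genes lower in banding. At 1 FPKM Agtr1a was also lower with the Gata4 KO label and Edn3 higher in banding. At 1.5-fold Ednra was lower and Ece1 higher with the Gata4 KO label, and Ece1 was lower in sham than in adult.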
